A study of Mus musculus with 10 samples.

Results

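The 49 genes described here encode the actins and the proteins that bundle, cut, cap, nucleate, pull on or anchor actin filaments. They were listed by name, with earlier results of these data known, and all 49 are among the 41743 gene names in the count tables of the 10 libraries. After a filter on low counts, 44 of the 49 were tested, beside 12595 genes in all. The RNA came from K7M2, a mouse osteosarcoma cell line that forms metastases in lung, and from 4 lines derived from it, with 2 poly(A) RNA libraries a line. Parental K7M2 cells have their own ezrin gene, whereas in all 4 derived lines that gene had been knocked out with CRISPR/Cas9 and a vector had been added stably. The vector was empty in the first derived line and carried an ezrin cDNA, wild type, T567A or T567D, in the others. By its title, the series concerns the closed, cytoplasmic form of ezrin in metastasis of this tumour. Each construct was carried by 1 stable line, and the titles of all 4 share a tag, so that the construct and the line that carries it cannot be told apart. Whether the 2 libraries of a line are separate cultures is not labelled, and a p-value here therefore reflects just the spread from one library to the next, possibly technical.

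Actin monomers add to the barbed end of a filament, a step helped by formins and profilin, and leave from the other end, helped by cofilin. Cross-linkers gather filaments into bundles and networks, myosin II pulls on them, and focal adhesion proteins tie them to integrins at the cell surface. Ezrin ties actin filaments to the plasma membrane. Phosphorylation of threonine T567 opens the protein. The T567A form cannot be phosphorylated there, and the T567D form mimics phosphorylation. Many genes for actin and its partners are targets of the transcription factor SRF and its cofactors of the MRTF family, which sense free actin.

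Total counts ran from 14679424 in T567A replicate 2 to 18230763 in T567A replicate 3. Levels are given as CPM, counts relative to library size with TMM scaling, where 3 counts, taken as the lowest level that can be told from 0, correspond to 0.167 to 0.207 CPM. Ezrin itself (Ezr, chr17:6738041-6782784, GRCm38) stood at 164 and 166 CPM in the parental libraries, 72.4 and 72.9 with empty vector, 230.4 and 233.5 with wild-type ezrin, 248 and 253 with T567A and 204 and 181.5 with T567D, so that it was lowest in the knock-out line without rescue and was still counted there. The 2 T567A libraries differed most from each other (8.45 chi-square per degree of freedom, against 2.44 to 4.35 in the other lines). Among 8 osteoblast markers, Col1a2 (2890 to 3530 CPM), Col1a1 (247 to 1830), Spp1 (165 to 313) and Runx2 (32.3 to 42.6) were present in all libraries, Alpl was low (1.69 to 13.9), and Sp7, Ibsp and Bglap did not pass 0.278 CPM. Summed endothelial, epithelial and skeletal muscle markers did not pass 2.37, 0.501 and 0.292 CPM.

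Levels differed widely among the members. On the deposited RPKM scale, which divides by gene length, the line means of Actb (852.6 to 1161) and Actg1 (900.5 to 1117), the cytoplasmic β- and γ-actin, and of the cofilin gene Cfl1 (530.4 to 688.7) were the highest of the list. The members tested had a median level of 172 CPM over the 10 libraries, against 29.8 CPM over all tested genes. Together the members took 1.77% and 1.85% of all counts in the T567A libraries and 1.97% to 2.25% in the other 8. The 5 members that did not pass the filter are mostly known from smooth or striated muscle. Tagln (transgelin) had 0 to 3 counts a library, Cnn1 (calponin 1) 0 to 2, Myl9 (a regulatory myosin light chain) 0 to 2, Tpm2 (β-tropomyosin) 0 to 7 and Flnc (filamin C) 2 to 22. These 5 were too low for the main test. Of 7 smooth muscle markers, Smtn was at 99.9 to 173 CPM, Myocd reached 4.14 and the other 5 did not pass 1.04.

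In 6 members there is a CArG box, the site that SRF binds, between 250 bases before and 50 bases after an annotated start in the RefSeq annotation of GRCm38.p6. The box reads alike on both strands and was the only motif searched. A promoter entry was found for 43 of the 49 members, and 6 of the 43 (14%) hold the box, against 488 of 27025 genes with an entry (1.81%). A match is a description and no proof of a site. Plec, Diaph1, Actb, Pxn, Tagln and Cotl1 had no entry. The 6 stretches are shown because Srf is itself a member and this box is the sequence that these members share. Capitals mark the box, and each stretch reads 5′ to 3′ on the strand given.
Actg1, minus strand, chr11:120348546-120348615: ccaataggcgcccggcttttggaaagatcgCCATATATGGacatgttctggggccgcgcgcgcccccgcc
Cnn2, plus strand, chr10:79988514-79988583: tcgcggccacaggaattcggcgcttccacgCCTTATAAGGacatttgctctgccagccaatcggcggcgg
Lima1, minus strand, chr15:99820157-99820226: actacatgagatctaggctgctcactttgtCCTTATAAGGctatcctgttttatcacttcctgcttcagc
Myl9, plus strand, chr2:156775273-156775342: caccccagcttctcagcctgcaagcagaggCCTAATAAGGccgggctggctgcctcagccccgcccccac
Srf, minus strand, chr17:46556185-46556274: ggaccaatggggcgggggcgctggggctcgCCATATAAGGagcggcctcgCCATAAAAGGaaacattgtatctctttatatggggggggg
Vcl, plus strand, chr14:20929148-20929210: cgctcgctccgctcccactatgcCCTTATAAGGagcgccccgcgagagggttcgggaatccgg
The first bases of the boxes lie 90, 56, 47 and 161 bases before the start in Actg1, Cnn2, Lima1 and Myl9, 82 and 62 in Srf, which holds 2, and 227 in Vcl. The Lima1 stretch lies inside that gene as annotated in GENCODE M21 (chr15:99778470-99875456), so its start is not the outermost. Counts per gene do not show whether that start is used.

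The members with a box did not share 1 order of lines. Srf, the gene of the factor itself, stood at 73.4 and 74.6 CPM in the parental libraries, 52.7 and 55.0 with empty vector, 54.1 and 53.4 with wild-type ezrin, 37.5 and 37.8 with T567A and 61.3 and 66.3 with T567D, lowest in both T567A libraries and highest in both parental ones. It was lower with T567A than with wild type (log2 difference ± SE -0.51 ± 0.073, edgeR adjusted p = 1e-05, as in all such parentheses from here on) and did not pass the test for T567D against wild type (0.25 ± 0.069, edgeR adjusted p = 0.087). Actg1 was also lower with T567A than with wild type (-0.28 ± 0.064, edgeR adjusted p = 0.0014), whereas Lima1 went the other way (0.74, edgeR adjusted p = 2.1e-08). Vcl and Cnn2 gave -0.05 and 0.01 for T567A minus wild type, with edgeR adjusted p of 0.53 and 0.91.

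**Figure D1:**
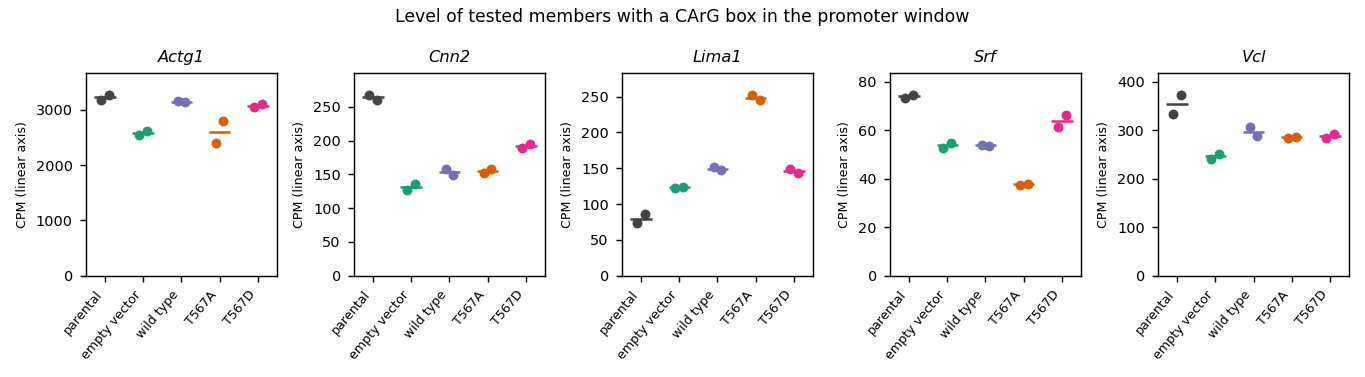
Level of the 5 tested members with a CArG box, in CPM on linear axes from 0, in the 2 libraries of each line (points) with the line mean (bar). Srf is lowest with T567A, at 37.5 and 37.8 CPM, whereas Lima1 is highest there, at 252.5 and 245 CPM.

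Expression of most members differed among the 4 derived lines, which were all made as ezrin knock-outs. In the test for any difference among them, 40 of 44 members were called at an adjusted p under 0.05, against 54.2% of all tested genes. The members were chosen with earlier results of these data known. A share above that of all genes may therefore follow in part from the choice, here and in the comparisons below. Members are also expressed at higher levels than most genes. Of genes with a mean of at least 50 CPM, 65.1% were called, and 31 of 35 members of that level. The 4 not called were Vasp, which extends filaments at adhesions, the formin Diaph3, caldesmon (Cald1), which holds back myosin on actin, and Tpm1, an α-tropomyosin. The T567A line was the lowest of the 4 in 24 of 44 members (54.5%, against 36.8% of all tested genes) and the highest in 9 (20.5%, against 37.5%). The T567D line was the highest in 18 (40.9%, against 20.5%) and the lowest in 2 (4.55%, against 20.8%). These shares of all tested genes were not matched for level. The same holds for the shares called higher and lower in the comparisons below.

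**Figure D2:**
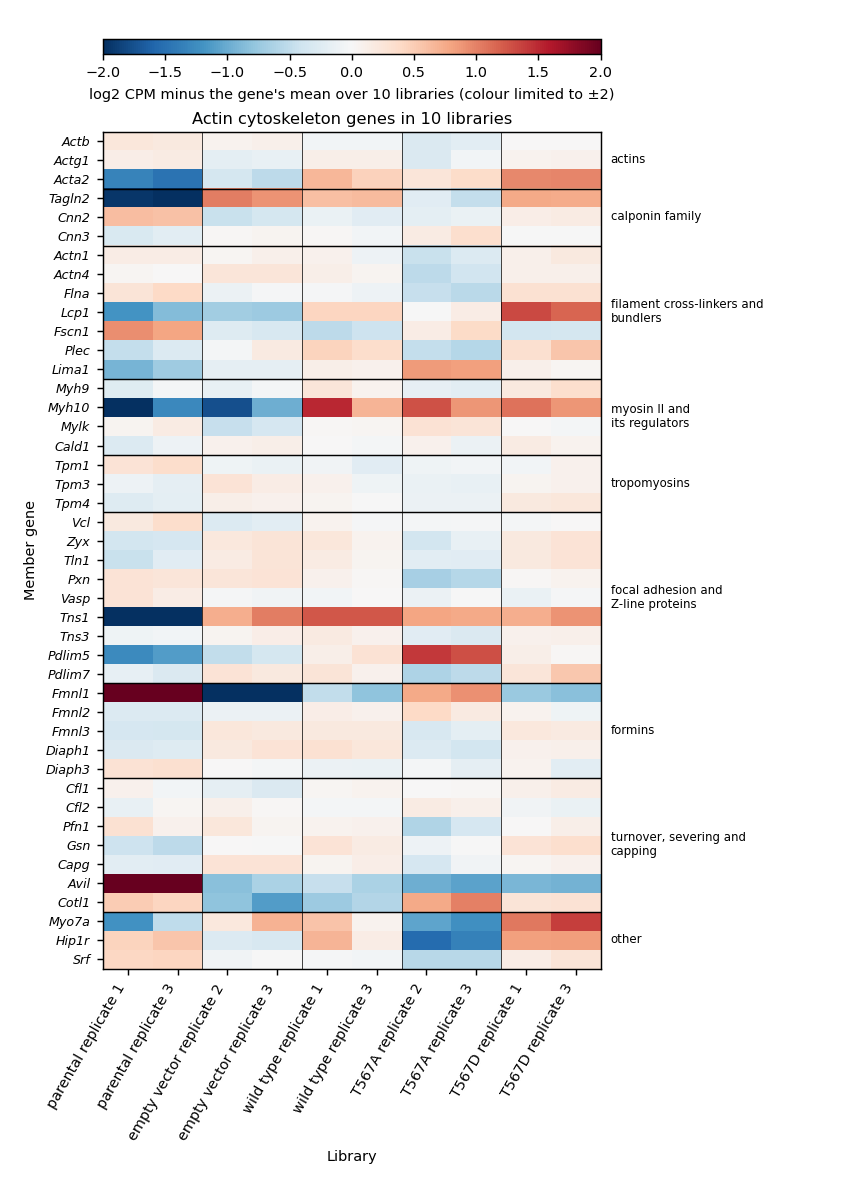
Each row is 1 of the 44 tested members, ordered by role, and each column 1 library. Colour is log2 CPM minus the gene's mean over the 10 libraries, limited to 2 in either direction. Fmnl1 and Avil stand out as high in parental cells, Tagln2 and Tns1 as low there, and Pdlim5, Lima1 and Cotl1 as high with T567A.

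Among the actins, smooth muscle actin moved most. Acta2 (chr19:34241090-34255590), the actin of contractile cells and myofibroblasts, stood at 12.0 and 10.8 CPM in the parental libraries, 23.7 and 20.9 with empty vector, 48.0 and 41.8 with wild-type ezrin, 35.8 and 39.1 with T567A and 58.6 and 59.6 with T567D. The libraries of the 5 lines did not overlap. Acta2 was higher with empty vector than in parental cells (0.97 ± 0.11, edgeR adjusted p = 1.4e-07) and higher again with wild-type ezrin (1.01 ± 0.091, edgeR adjusted p = 1.6e-07). With T567D it rose further against wild type (0.40 ± 0.083, edgeR adjusted p = 0.015), and it was lower with T567A than with T567D (-0.66 ± 0.085, edgeR adjusted p = 2.6e-06). The T567D call was lost without wild-type replicate 3 (edgeR adjusted p = 0.36), T567D replicate 1 (0.086) or T567D replicate 3 (0.095). For T567A minus wild type the difference was -0.26 (edgeR adjusted p = 0.023), and that call was lost without wild-type replicate 1 (0.27) or T567A replicate 2 (0.14). The summed smooth muscle markers, nearly all Smtn, were at 153 to 159 CPM in parental cells, 172 to 174 with empty vector, 152 to 161 with wild type, 102 to 112 with T567A and 159 to 168 with T567D, and their part in the Acta2 result was not tested. Actb stood at 3438 and 3389 CPM in the parental libraries, 3104 and 3164 with empty vector, 2848 and 2825 with wild-type ezrin, 2400 and 2548 with T567A and 2958 and 2979 with T567D. Both T567A libraries were the lowest, and the T567A line was lower than the wild-type line (-0.20 ± 0.055, edgeR adjusted p = 0.0068), a call lost without wild-type replicate 1 (edgeR adjusted p = 0.056). Actg1 was lower with T567A than with wild type as well (-0.28 ± 0.064, edgeR adjusted p = 0.0014). Actb and Actg1 have near-identical coding sequence, and counting may have split reads between them.

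The calponin family members Tagln2, Cnn2 and Cnn3 bind along filaments and stabilise them. Tagln2 (chr1:172500047-172507380) stood at 26.6 and 25.3 CPM in the parental libraries, 209 and 192 with empty vector, 156 and 159 with wild-type ezrin, 87.1 and 73.8 with T567A and 172.5 and 172 with T567D. It was 7.72 times as high with empty vector as in parental cells (2.95 ± 0.082, edgeR adjusted p = 3.1e-17), slightly lower with wild-type ezrin than with empty vector (-0.35 ± 0.07, edgeR adjusted p = 0.0017), and lower again with T567A (-0.97 ± 0.074, edgeR adjusted p = 1.2e-09). With a replicate block the Tagln2 call for wild type minus empty vector was lost (-0.26, edgeR adjusted p = 0.056). The T567A libraries lay below those of the other derived lines and above the parental ones. Cnn2 stood at 268 and 261 CPM in the parental libraries, 127 and 136 with empty vector, 158 and 149 with wild-type ezrin, 151.5 and 158 with T567A and 189.6 and 195 with T567D, highest in parental cells, and fell in the empty-vector line (-1.01 ± 0.062, edgeR adjusted p = 9.6e-12). With T567D, Cnn2 was higher than with wild type (0.32 ± 0.062, edgeR adjusted p = 0.0066), a call lost without wild-type replicate 3 (edgeR adjusted p = 0.21) or T567D replicate 3 (0.064). Cnn3 stood at 354 and 376 CPM in the parental libraries, 445 and 454 with empty vector, 442 and 418 with wild-type ezrin, 487 and 554 with T567A and 433 and 434 with T567D, and was higher with T567A than with wild type (0.28 ± 0.064, edgeR adjusted p = 0.0017).

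The cross-linkers and bundlers fell into opposite directions with T567A. Of 7 tested, 5 were lower than with wild type and 2 were higher, against 19.1% lower and 20.4% higher of all tested genes. Plectin (Plec), which links actin to intermediate filaments, stood at 474 and 546 CPM in the parental libraries, 646.5 and 746 with empty vector, 899.5 and 848 with wild-type ezrin, 474 and 447 with T567A and 824 and 969 with T567D. Both T567A libraries fell below those of the other derived lines (-0.92 ± 0.088, edgeR adjusted p = 9.1e-07, for T567A minus wild type). Filamin A (Flna), which joins filaments into networks, stood at 1043 and 1150 CPM in the parental libraries, 799.9 and 857 with empty vector, 852 and 812 with wild-type ezrin, 633 and 602 with T567A and 1071 and 1073 with T567D. It fell with T567A (-0.43 ± 0.062, edgeR adjusted p = 1.2e-05), and with T567D it lay in the parental range and was higher than with wild type (0.37 ± 0.062, edgeR adjusted p = 0.0025). The T567D call for Flna was lost without wild-type replicate 3 (edgeR adjusted p = 0.1). The α-actinin genes Actn1 and Actn4 were lower with T567A than with wild type (log2 differences -0.35 and -0.54, edgeR adjusted p = 0.00032 and 3.5e-07). Both are ubiquitous cross-linkers of stress fibres.

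Fascin and EPLIN went against these. Fascin (Fscn1), which packs filaments into the bundles of filopodia, stood at 1275 and 1158 CPM in the parental libraries, 557.5 and 533 with empty vector, 463 and 499 with wild-type ezrin, 738 and 871 with T567A and 517 and 526 with T567D. It fell from parental to empty-vector cells (-1.16 ± 0.072, edgeR adjusted p = 1.7e-11) and was higher with T567A than with wild type (0.74 ± 0.072, edgeR adjusted p = 6.4e-08), so that the T567A libraries lay between the parental and the other derived ones. Lima1, the gene for EPLIN, which slows filament branching and loss, stood at 72.9 and 85.6 CPM in the parental libraries, 123 and 124 with empty vector, 151 and 148 with wild-type ezrin, 252.5 and 245 with T567A and 149 and 143.5 with T567D. It was higher with empty vector than in parental cells (0.64 ± 0.071, edgeR adjusted p = 1.3e-07) and higher with T567A than with wild type (0.74 ± 0.067, edgeR adjusted p = 2.1e-08). L-plastin (Lcp1), a bundler best known from leukocytes, stood at 2.91 and 3.62 CPM in the parental libraries, 4.07 and 3.99 with empty vector, 8.96 and 8.97 with wild-type ezrin, 6.56 and 7.35 with T567A and 16.6 and 14.8 with T567D. It was higher with wild-type ezrin than with empty vector (1.15 ± 0.15, edgeR adjusted p = 1.9e-05) and higher with T567D than with wild type (0.81 ± 0.12, edgeR adjusted p = 0.00086). The T567D call for Lcp1 was lost with limma on the log2 of RPKM plus 0.1 (limma adjusted p = 0.066). For T567A minus wild type Lcp1 gave -0.36 (edgeR adjusted p = 0.043), a call that did not hold without T567A replicate 2 (0.2), wild-type replicate 1 (0.13) or wild-type replicate 3 (0.12).

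Several members are best known from leukocytes, so the leukocyte markers are given here. Csf1r was at 1180 to 1680 CPM in all libraries and made up nearly all of the list's summed level, which was 1180 in both parental libraries, 1550 to 1590 with empty vector, 1380 to 1390 with wild type, 1560 to 1680 with T567A and 1340 to 1350 with T567D. The other 7 markers did not pass 1.8 CPM, with Cd52 at 0 in all 10 libraries and Ptprc, which marks nearly all leukocytes, at no more than 0.414. Of these 7 only Coro1a, the gene of an actin-binding coronin, passed the filter, at 1.80 and 1.17 CPM in the parental libraries, 0.509 and 0.52 with empty vector, 0.582 and 0.571 with wild-type ezrin, 1.45 and 1.17 with T567A and 0.578 and 0.526 with T567D. The 2 tested markers differed in direction for empty vector minus parental, lower in Coro1a (-1.51 ± 0.38, edgeR adjusted p = 0.0018) and higher in Csf1r (0.41 ± 0.056, edgeR adjusted p = 2.1e-06). Both were higher with T567A than with wild type (1.16 and 0.23, edgeR adjusted p = 0.02 and 0.003). Fmnl1 and Cotl1, described further on, also fell from parental to empty-vector cells and were higher with T567A. Cotl1 was also higher with T567D than with wild type, where neither tested marker was called. Lcp1 went otherwise, at 0.31 for empty vector minus parental (edgeR adjusted p = 0.16) and -0.36 for T567A minus wild type (edgeR adjusted p = 0.043). The part of these markers in the levels of Fmnl1, Cotl1 and Lcp1 was not tested.

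Among the myosin II genes, Myh10 and Mylk had the largest differences between wild-type ezrin and empty vector. Myh10, the heavy chain of myosin IIB, lies near the limit of detection, at 0.116 and 0.233 CPM in the parental libraries, 0.17 and 0.289 with empty vector, 1.63 and 0.914 with wild-type ezrin, 1.38 and 1.06 with T567A and 1.21 and 1.05 with T567D. Both parental and both empty-vector libraries lay below the 6 others. Summed over 2 libraries, 44 counts with wild-type ezrin stood against 8 with empty vector, a ratio of 5.55 with a 95% counting interval of 2.58 to 13.6, and the fit gave 2.44 ± 0.49, edgeR adjusted p = 0.0018. Without wild-type replicate 1 that call was lost (edgeR adjusted p = 0.057). Mylk, the myosin light chain kinase that switches myosin II on, stood at 169 and 182 CPM in the parental libraries, 119 and 129 with empty vector, 166 and 167.5 with wild-type ezrin, 198 and 196 with T567A and 164 and 158 with T567D. It was lower in empty-vector than in parental cells (-0.50 ± 0.063, edgeR adjusted p = 8.1e-07) and rose with wild-type ezrin (0.43 ± 0.063, edgeR adjusted p = 8.6e-05). Myh9, the main heavy chain, of myosin IIA, was lower with T567A than with wild type (-0.34 ± 0.074, edgeR adjusted p = 0.0012). Cald1 was higher in empty-vector than in parental cells (0.28 ± 0.07, edgeR adjusted p = 0.002), a call lost without parental replicate 1 (edgeR adjusted p = 0.07).

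Tropomyosins lie along filaments and set which proteins reach them. Tpm1 stood at 1972 and 2085 CPM in the parental libraries, 1530 and 1490 with empty vector, 1545 and 1398 with wild-type ezrin, 1531 and 1573 with T567A and 1570 and 1739 with T567D and was higher in parental cells than in the empty-vector line (-0.43 ± 0.064, edgeR adjusted p = 7.6e-06). Tpm3 and Tpm4 changed the opposite way between these lines (0.35 and 0.33, edgeR adjusted p = 1e-04 and 3.4e-05). For T567A minus wild type no tropomyosin of 3 was called (2 at an unadjusted p under 0.05, 1 by DESeq2), against 39.6% of all tested genes. Tpm3 stood at 247 and 234 CPM in the parental libraries, 319 and 294 with empty vector, 280.3 and 250.3 with wild-type ezrin, 242 and 240 with T567A and 276 and 281 with T567D. It was lower with wild-type ezrin than with empty vector (-0.21 ± 0.065, edgeR adjusted p = 0.031), a call lost without empty-vector replicate 2 (edgeR adjusted p = 0.28) or wild-type replicate 3 (0.33).

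Among focal adhesion and Z-line genes, Tns1 differed most between parental and derived lines. Tns1 (tensin 1, chr1:73910231-74124449), which joins integrin tails to actin, stood at 1.51 and 1.34 CPM in the parental libraries, 30.7 and 37.7 with empty vector, 44.1 and 44.0 with wild-type ezrin, 32.2 and 31.3 with T567A and 30.7 and 34.7 with T567D. The 8 derived libraries did not overlap the parental ones, and the empty-vector line was 23.8 times as high as the parental line (4.58 ± 0.16, edgeR adjusted p = 8.1e-16). Tns1 was lower with T567D than with wild type (-0.43 ± 0.091, edgeR adjusted p = 0.016), a call that no longer held without T567D replicate 1 (edgeR adjusted p = 0.24), wild-type replicate 1 (0.13) or wild-type replicate 3 (0.15).

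The PDZ-LIM proteins Pdlim5 and Pdlim7, which bring kinases and other proteins to α-actinin and filaments, changed in opposite directions with T567A. Pdlim5 (chr3:142239590-142395696) stood at 66.3 and 73.7 CPM in the parental libraries, 114 and 125 with empty vector, 174 and 195 with wild-type ezrin, 428 and 392 with T567A and 174.5 and 162.5 with T567D. It rose from parental to empty-vector cells (0.77 ± 0.078, edgeR adjusted p = 3.5e-08), rose again with wild-type ezrin (0.63 ± 0.075, edgeR adjusted p = 6.3e-06) and was highest with T567A (1.15 ± 0.073, edgeR adjusted p = 8.3e-11). Pdlim7 stood at 46.1 and 42.5 CPM in the parental libraries, 62.6 and 59.0 with empty vector, 62.0 and 55.0 with wild-type ezrin, 33.8 and 36.0 with T567A and 60.9 and 75.4 with T567D, lowest with T567A (-0.74 ± 0.096, edgeR adjusted p = 3.9e-06). Paxillin (Pxn), a scaffold for signalling at adhesions, stood at 83.5 and 81.7 CPM in the parental libraries, 81.7 and 83.5 with empty vector, 73.2 and 69.9 with wild-type ezrin, 43.8 and 46.6 with T567A and 70.6 and 72.2 with T567D. It did not pass the test between parental and empty-vector lines (0.00 ± 0.064, edgeR adjusted p = 1), and it fell with T567A (-0.66 ± 0.069, edgeR adjusted p = 1.5e-07). Its lower level with wild-type ezrin than with empty vector (-0.21 ± 0.065, edgeR adjusted p = 0.033) was lost without any 1 of 6 libraries, namely both parental, both empty-vector and both wild-type ones (edgeR adjusted p = 0.059 to 0.21).

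Zyxin (Zyx), which gathers VASP at adhesions under tension, was lower with T567A than with wild type, as were talin 1 (Tln1), which switches integrins on, and tensin 3 (Tns3). Their log2 differences were -0.40, -0.33 and -0.39 (edgeR adjusted p = 0.00024, 7e-04 and 1.8e-05). Vinculin (Vcl), which holds talin to actin, was not called there. It was lower in empty-vector than in parental cells (-0.52 ± 0.063, edgeR adjusted p = 4.6e-07). Vasp was also lower in empty-vector cells (-0.26 ± 0.067, edgeR adjusted p = 0.0025), a call lost without parental replicate 1 (edgeR adjusted p = 0.055).

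**Figure D3:**
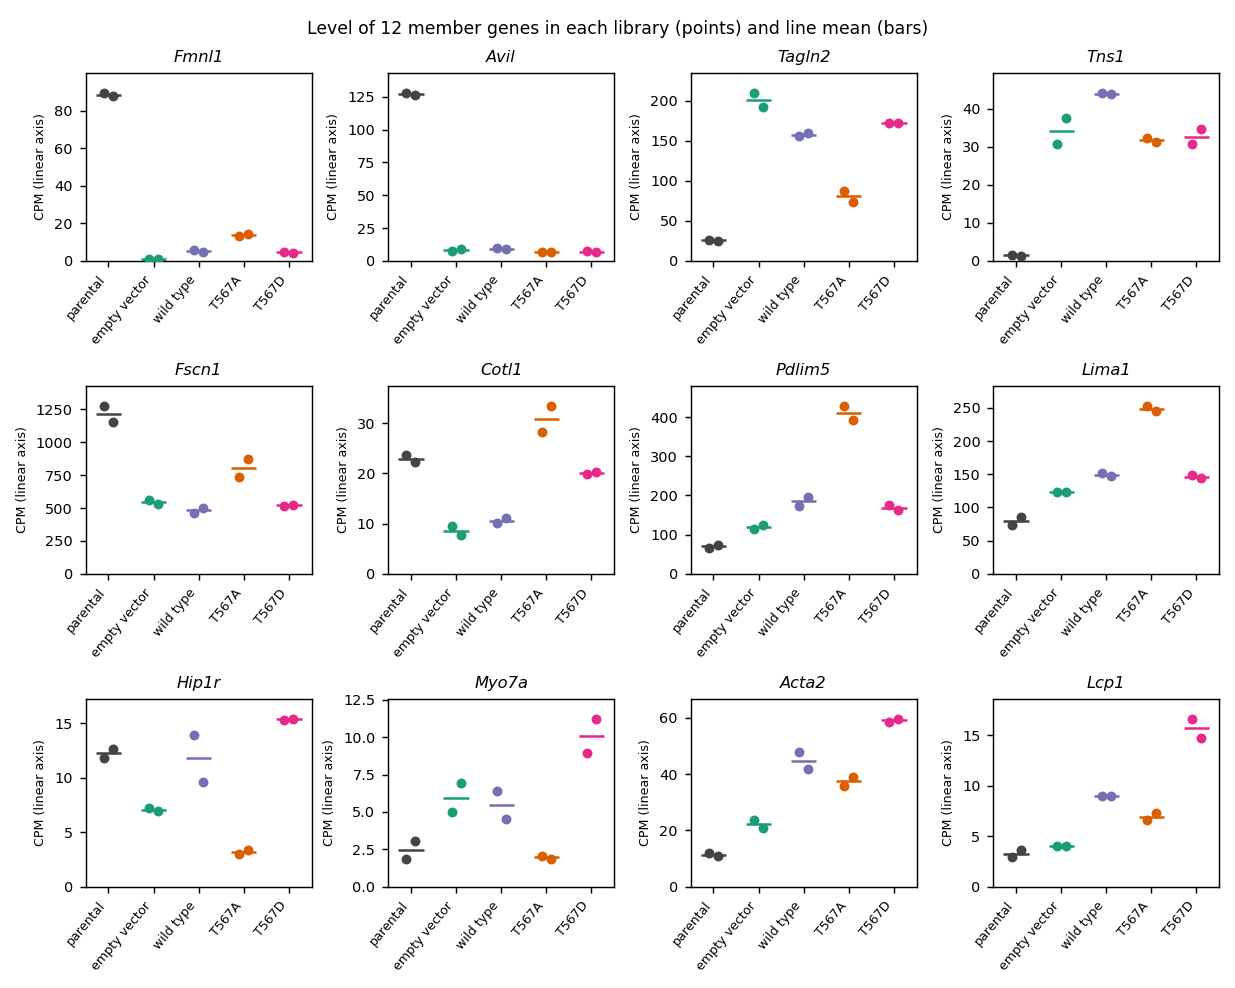
Level of 12 members, in CPM on linear axes from 0, in the 2 libraries of each line (points) with the line mean (bar). Fmnl1 and Avil are high in parental cells alone, Tns1 and Tagln2 are low there, and T567A libraries are the highest of all 10 for Pdlim5, Lima1 and Cotl1.

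Formins start and extend unbranched filaments. The member with the widest range of all was Fmnl1 (chr11:103171107-103198901), a formin best known from blood cells, which stood at 89.2 and 87.6 CPM in the parental libraries, 1.07 and 0.983 with empty vector, 5.53 and 4.46 with wild-type ezrin, 13.1 and 14.5 with T567A and 4.62 and 4.33 with T567D. It was 85.3 times lower with empty vector than in parental cells (-6.41 ± 0.14, edgeR adjusted p = 3.5e-19), rose with wild-type ezrin (2.27 ± 0.21, edgeR adjusted p = 2.7e-07) and rose again with T567A (1.47 ± 0.13, edgeR adjusted p = 8.7e-09), without reaching the parental level. The T567D libraries overlapped those of wild type (-0.16 ± 0.16, edgeR adjusted p = 0.79). Its relatives behaved otherwise. Fmnl3 was higher in empty-vector than in parental cells (0.55 ± 0.064, edgeR adjusted p = 2.4e-07) and lower with T567A than with wild type (-0.45 ± 0.064, edgeR adjusted p = 1.1e-05). Diaph1, another formin, differed in the same directions in these 2 comparisons (0.51 and -0.59, edgeR adjusted p = 1.3e-06 and 5.1e-07). Fmnl2 stood at 58.5 and 58.2 CPM in the parental libraries, 65.2 and 65.2 with empty vector, 77.3 and 74.6 with wild-type ezrin, 92.7 and 80.3 with T567A and 74.3 and 66.7 with T567D. It was higher with T567A than with T567D (0.29 ± 0.075, edgeR adjusted p = 0.0034), a call lost without T567A replicate 2 (edgeR adjusted p = 0.051) or T567D replicate 3 (0.083). The formin Diaph3 was lower in the empty-vector than in the parental line (-0.32 ± 0.077, edgeR adjusted p = 0.0014).

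Of the proteins that cut, cap or turn over filaments, Avil and Cotl1 changed most. Advillin (Avil, chr10:127000709-127020994), a relative of gelsolin known from sensory neurons, stood at 128 and 126 CPM in the parental libraries, 7.52 and 8.68 with empty vector, 9.78 and 8.74 with wild-type ezrin, 6.83 and 6.46 with T567A and 7.16 and 7.01 with T567D. All 8 derived libraries lay below both parental ones, and the empty-vector line was 15.7 times lower than the parental line (-3.97 ± 0.091, edgeR adjusted p = 9.7e-19). Coactosin-like protein (Cotl1), which binds filaments and is best known from leukocytes, stood at 23.6 and 22.3 CPM in the parental libraries, 9.55 and 7.63 with empty vector, 10.0 and 11.0 with wild-type ezrin, 28.2 and 33.4 with T567A and 19.9 and 20.3 with T567D. It fell from parental to empty-vector cells (-1.42 ± 0.12, edgeR adjusted p = 1.9e-09) and was higher than with wild type both with T567A (1.55 ± 0.11, edgeR adjusted p = 6e-10) and with T567D (0.94 ± 0.12, edgeR adjusted p = 0.00011). It was higher with T567A than with T567D (0.62 ± 0.1, edgeR adjusted p = 5.5e-05). Profilin 1 (Pfn1), which loads monomers for growth, stood at 1023 and 883 CPM in the parental libraries, 976 and 868 with empty vector, 870.2 and 881 with wild-type ezrin, 548 and 662 with T567A and 832 and 900.4 with T567D. The T567A libraries were the lowest (-0.53 ± 0.091, edgeR adjusted p = 0.00033).

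Gelsolin (Gsn), which cuts and caps filaments, and Capg, which caps them, were higher in empty-vector than in parental cells (0.47 and 0.49, edgeR adjusted p = 1.7e-06 and 4.3e-06). Both were lower with T567A than with wild type (-0.27 and -0.29, edgeR adjusted p = 0.0013 and 0.0027), and the call for Capg was lost without T567A replicate 2 (0.058). Cfl1, the main cofilin, was lower in empty-vector than in parental cells (-0.25 ± 0.061, edgeR adjusted p = 0.0013) and higher with wild-type ezrin than with empty vector (0.29 ± 0.061, edgeR adjusted p = 0.0024). Both Cfl1 calls were lost without empty-vector replicate 3 (edgeR adjusted p = 0.051 and 0.084). Cfl2, the muscle form, was higher with T567A than with wild type (0.18 ± 0.068, edgeR adjusted p = 0.044). That call was lost without any 1 of 7 libraries, among them both wild-type ones. It was also lost with RLE scaling (edgeR adjusted p = 0.054), a filter of 5 CPM in 2 libraries (edgeR adjusted p = 0.061) and a replicate block (edgeR adjusted p = 0.34). DESeq2 did not call it either (DESeq2 adjusted p = 0.087).

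Hip1r, which joins clathrin coats to actin, and Myo7a, the myosin of hair-cell bundles, had the lowest T567A values relative to wild type. Hip1r stood at 11.8 and 12.7 CPM in the parental libraries, 7.18 and 6.94 with empty vector, 13.9 and 9.60 with wild-type ezrin, 2.97 and 3.40 with T567A and 15.3 and 15.4 with T567D, with both T567A libraries below all others (-1.87 ± 0.18, edgeR adjusted p = 3.8e-08). It was lower in empty-vector than in parental cells (-0.79 ± 0.15, edgeR adjusted p = 0.00012) and higher with wild type than with empty vector (0.73 ± 0.15, edgeR adjusted p = 0.0019), the second a call lost without wild-type replicate 1 (edgeR adjusted p = 0.1). Myo7a stood at 1.86 and 3.03 CPM in the parental libraries, 4.97 and 6.94 with empty vector, 6.40 and 4.51 with wild-type ezrin, 2.07 and 1.84 with T567A and 8.95 and 11.2 with T567D. It was higher in empty-vector than in parental cells (1.28 ± 0.25, edgeR adjusted p = 0.00022), and the T567A libraries lay near the parental ones. It was lower with T567A than with wild type (-1.49 ± 0.27, edgeR adjusted p = 0.00023). With T567D it was higher than with wild type (0.89 ± 0.19, edgeR adjusted p = 0.027). That difference was 0.66 without wild-type replicate 3 and 0.72 without T567D replicate 3, and the call was lost in each fit. DESeq2 did not call it (DESeq2 adjusted p = 0.11). Neither did limma on the log2 of RPKM plus 1 or 0.1 (limma adjusted p = 0.08 and 0.18).

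Loss of ezrin with empty vector, set against parental cells, went with changes in both directions in most members. Of 44 tested, 20 were higher, 15 lower and 9 not called. All tested genes gave 54.6% called (27.4% higher and 27.2% lower), and genes of at least 50 CPM 59.4%, where 28 of 35 members were called. The members' median log2 difference was 0.16, and the median over all tested genes lay between -0.01 and 0.0039 in the 5 comparisons. The members' median was 0.0549 without parental replicate 1 and 0.0461 with no filter on low counts. By role, 6 of 9 focal adhesion and Z-line genes were higher and 2 lower, and 3 of 7 cross-linkers were higher and 2 lower. Leaving out any 1 of the 10 libraries kept 31 of the 35 calls, and Cald1, Cfl1, Tns3 and Vasp each lost theirs in at least 1 such fit. This comparison also spans the making of the knock-out line and its vector, which cannot be told apart from the loss of ezrin.

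Return of wild-type ezrin to the knock-out line went with fewer changes. Of 44 members, 16 were higher than with empty vector, 3 lower and 25 not called. The background was 15.6% of all tested genes (8.25% higher and 7.36% lower) and 19.4% of genes of at least 50 CPM, where 13 of 35 members were called. The median log2 difference was 0.0143, and its sign depended on the libraries, at -0.0167 and 0.0315 without wild-type replicates 1 and 3 in turn, and at -0.0162 and 0.0485 without empty-vector replicates 2 and 3. It was also just below 0 without either T567D library (-0.00061 and -0.00082), and 0.0249 without parental replicate 3. The 35 members of at least 50 CPM had a median of -0.0375. Scaled by upper quartiles, 17 were higher and 1 lower, and in a fit of only the 4 libraries compared 17 were higher and 7 lower. Without either T567A library 16 were higher and 6 lower. Of the 19 calls, 6 were kept whichever 1 library was left out, 5 of them higher (Acta2, Lcp1, Mylk, Pdlim5 and Fmnl1) and 1 lower (Tagln2). The count dropped to 8 without wild-type replicate 1 and to 9 without empty-vector replicate 2.

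Rescue with T567A in place of wild-type ezrin went with lower levels of most members. Of 44, 25 were lower, 8 higher and 11 not called. Over all tested genes 39.6% were called, nearly evenly split (20.4% higher and 19.1% lower), and 49% of genes of at least 50 CPM, where 25 of 35 members were called. The members' median log2 difference was -0.28. Under the alternatives it ran from -0.333 without wild-type replicate 3 to -0.193 without T567A replicate 2. By role, all 3 actins, 5 of 7 cross-linkers, 6 of 9 focal adhesion and Z-line genes, 2 of 5 formins and 4 of 7 turnover genes were lower. Those higher were Cnn3, Fscn1, Lima1, Mylk, Pdlim5, Fmnl1, Cfl2 and Cotl1. Most differences were small: in the test against a 1.5-fold change 3 members were higher and 4 lower, with 3.91% of all tested genes called. Leaving out any 1 library kept 26 of the 33 calls, 20 of them lower.

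Few members passed the test between T567D and wild type. Of 44 members, 6 were higher (Acta2, Cnn2, Flna, Lcp1, Cotl1 and Myo7a), 1 was lower (Tns1) and 37 were not called. Over all tested genes 1.34% were called (0.818% higher and 0.524% lower), and 1.45% of genes of at least 50 CPM, where 2 of 35 members were called. DESeq2 did not call Tns1 or Myo7a (DESeq2 adjusted p = 0.051 and 0.11). Both limma fits on RPKM lost the calls of Acta2, Tns1 and Myo7a (limma adjusted p = 0.069 to 0.24). The members' median log2 difference was 0.0617, and 0.0138 without wild-type replicate 3. Only Cotl1 and Lcp1 were called whichever 1 library was left out, and the count dropped to 2 without wild-type replicate 3 and to 4 without T567D replicate 3.

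**Figure D4:**
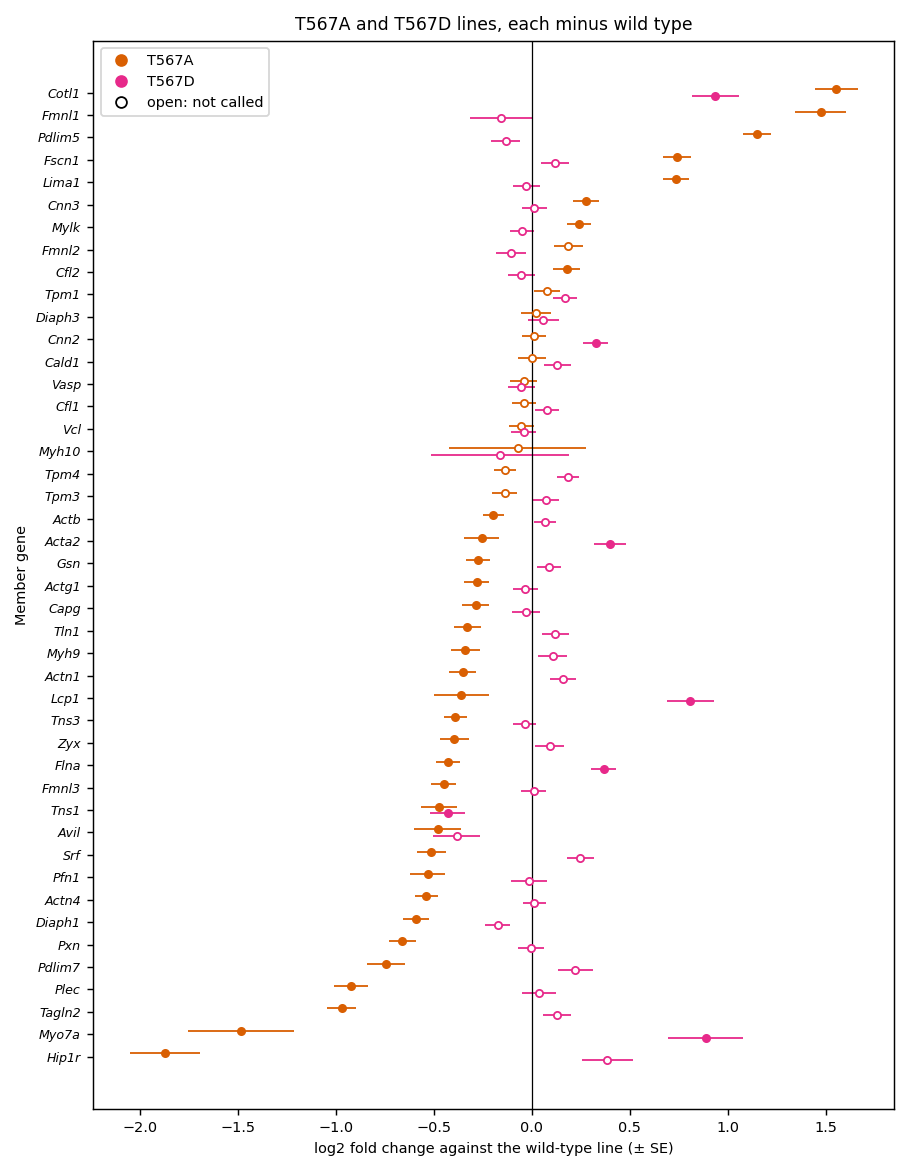
Log2 fold change of the 44 tested members in the T567A line (orange) and the T567D line (pink), each minus the wild-type line, with SE as bars and open points where a member was not called. Both sets use the same wild-type libraries. T567A values run from -1.87 (Hip1r) to 1.55 (Cotl1), and T567D values from -0.43 (Tns1) to 0.94 (Cotl1).

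Set directly against T567D, the T567A line again had most members lower. Of 44, 26 were lower with T567A, 9 higher and 9 not called. Over all tested genes 44.1% were called (22.5% higher and 21.6% lower), and 53.9% of genes of at least 50 CPM, where 29 of 35 members were called. The median log2 difference was -0.29. Under the alternatives it ran from -0.348 without T567A replicate 3 to -0.247 with the replicate block. The lowest were Myo7a (-2.37 ± 0.24, edgeR adjusted p = 3e-07), Hip1r (-2.26 ± 0.17, edgeR adjusted p = 9.3e-10) and Lcp1 (-1.17 ± 0.13, edgeR adjusted p = 2.5e-07). The highest were Fmnl1 (1.63 ± 0.13, edgeR adjusted p = 2.2e-09), Pdlim5 (1.28 ± 0.073, edgeR adjusted p = 1.3e-11) and Lima1 (0.76 ± 0.067, edgeR adjusted p = 1.1e-08). Tagln2 (-1.10), Pdlim7 (-0.96) and Plec (-0.96) were also lower with T567A and Fscn1 (0.63) higher. Leaving out any 1 library kept 30 of the 35 calls.

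Genes of the same pathways outside the list of 49 differed in both directions between T567A and wild type, a comparison in which 39.6% of all tested genes were called. Of 18 tested genes of the Arp2/3 and WAVE complexes, which branch filaments, 1 was higher and 5 lower (33.3% called). Of 19 other actin filament genes 6 were higher and 8 lower (73.7%), and of 21 other focal adhesion genes 3 were higher and 7 lower (47.6%). The median log2 differences of the 3 lists were -0.03, -0.15 and -0.06. The actin-severing gene Dstn was higher with T567A (0.67 ± 0.064, edgeR adjusted p = 4.5e-08). For T567D minus wild type no gene of these 3 lists was called by edgeR or by DESeq2 (1 of 18, 1 of 19 and 1 of 21 at an unadjusted p under 0.05). In the empty-vector minus parental comparison the lists gave 8 higher and 5 lower of 18 (72.2%), 9 and 5 of 19 (73.7%), and 7 and 8 of 21 (71.4%), against 54.6% of all tested genes. For wild type minus empty vector they gave 0 and 2 (11.1%), 3 and 0 (15.8%), and 3 and 3 (28.6%), against 15.6%.

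Some values carry limits from the counting. In GENCODE M21, exons of 18 of the 49 members overlap exons of another gene, 4 on the same strand (Actg1, Plec, Pdlim7 and Hip1r) and 15 on the other, Fmnl1 and Avil among them and Hip1r in both sets. The library kit marks strand, but the counting setting is not given in the sources used here. In RNA from a whole culture, fewer cells that express a gene and less RNA per cell cannot be told apart.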

How the data were processed

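Poly(A) RNA of 10 libraries (5 lines, 2 each) was sequenced after a strand-marking library preparation, per the labels' protocols. The authors deposited, per library, 1 table of raw counts per gene and 1 of RPKM values (reads scaled by gene length and depth). Per the submitters' processing notes, reads were placed on GRCm38. Not given in the sources used here are the aligner, the counter and its strand setting. Counts were tested with edgeR 4.0.16 (R 4.3.3) in 1 quasi-likelihood fit of 5 line means over all 10 libraries (5 residual degrees of freedom), with TMM scaling, a filter (filterByExpr, minimum count 10, minimum total 15) and Benjamini-Hochberg adjustment over all 12595 genes, two-sided. A member was called at an adjusted p under 0.05. Genes were given with library values by a rule: up to 6 called members in each direction and comparison provided the higher line averaged 1 CPM or more. Others were described by count or after their values were seen. The members and the 3 pathway and 6 marker lists given here were chosen with earlier results of these data known. Alternatives were DESeq2 1.42.0, scaling by RLE or by upper quartiles, other filters, a replicate block, a test against a 1.5-fold change, limma 3.58.1 on the log2 of deposited RPKM plus a pseudocount of 1 or 0.1, the libraries compared alone, and leaving out each library. One further list is not reported here. The edgeR steps were tested on simulated data. Promoter stretches came from RefSeq (GRCm38.p6).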

Additional observations from a re-analysis of the deposited data

Results flagged for a closer look

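In 4 members the T567A and T567D lines differed from the wild-type line in opposite directions, both called. The T567A minus T567D difference was called in edgeR as well. The 4 were picked by these calls, so the sign and call of that difference follow from the choice and are no separate evidence. The share of all tested genes that met the same conditions was not counted. The difference was -0.66 on the log2 scale in Acta2 (edgeR adjusted p = 2.6e-06), -0.80 in Flna (1.6e-09), -1.17 in Lcp1 (2.5e-07) and -2.37 in Myo7a (3e-07). In each of the 4, both T567A libraries lay below both T567D libraries, which the choice by calls made likely. Against wild type, DESeq2 did not call the T567A difference of Acta2 or Lcp1 (DESeq2 adjusted p = 0.059 and 0.18). Nor did it call the T567D difference of Myo7a (DESeq2 adjusted p = 0.11). With limma on the log2 of RPKM plus 0.1, Acta2, Lcp1 and Myo7a lost the T567D call (limma adjusted p = 0.075, 0.066 and 0.18). Lcp1 also lost its T567A call there (limma adjusted p = 0.095). Flna kept its calls in these fits. The calls against wild type were less firm: without wild-type replicate 3 the T567D calls of Acta2, Flna and Myo7a were lost (edgeR adjusted p = 0.36, 0.1 and 0.37), and without wild-type replicate 1 the T567A calls of Acta2 and Lcp1 were lost (0.27 and 0.13).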

How the results depend on the processing

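Of 1046 values of named members under the alternatives, 980 kept direction and call, 66 lost the call and 0 turned. RLE and upper-quartile scaling, DESeq2, both filters and fits of the compared libraries alone kept all counts of called members within 1.5 times. Medians of the members moved more, by library and filter, as given beside them. In the test against a 1.5-fold change, 10 members were called for empty vector minus parental (5 higher and 5 lower). For wild type minus empty vector 4 were called (4 higher and 0 lower). It called 7 for T567A minus wild type (3 higher and 4 lower) and 10 for T567A minus T567D (3 higher and 7 lower). Over all tested genes that test called 14.7%, 0.691%, 3.91% and 5.11% in turn. For T567D minus wild type that test called 0 members (3 at an unadjusted p under 0.05, and 5 by DESeq2 against no change). Over all tested genes it called 0.0556% there. With limma on RPKM, T567D minus wild type gave 4 (pseudocount 1) and 3 (pseudocount 0.1) in place of 7. The shares over all tested genes were 0.707% and 0.5%. Leaving out 1 library gave 33 to 36 members for empty vector minus parental, 8 to 22 for wild type minus empty vector, 27 to 34 for T567A minus wild type, 2 to 8 for T567D minus wild type, 32 to 35 for T567A minus T567D, and 38 to 40 for any difference. Deviations of same-numbered libraries correlated at -0.28 to 0.013 over 8946 genes, so the numbers were not taken to pair libraries. With the replicate block, wild type minus empty vector gave 11 members, 11 higher and 0 lower, and the other counts were 34, 29, 7, 31 and 39. Over all tested genes the block gave 8.59% for wild type minus empty vector. For the others it gave 45.2%, 26.6%, 1.04%, 30.6% and 43% in turn. A crossed pairing of T567D with wild type, chosen after seeing the data, gave 7, against 1.71% of all tested genes. With 2 libraries a line, small differences in scarce members could not be resolved.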
